A study of Mus musculus with 33 samples.

Results

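The genes described here are 5 mouse genes of transforming growth factor beta (TGF-beta) signalling and its feedback control: Tgfbr2, Smad7, Skil, Ski and Runx3. They are 5 of 10750 genes to which a value could be given in ribosome-depleted total RNA of CH12 cells, a mouse B lymphoma line used to study antibody class switching. A gene's value is the summed estimated counts of numbered genomic regions that lie wholly within its RefSeq span and touch no other gene. The members were picked by name, and the choice was made with earlier results of these data known.

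Of 24 RNA-seq libraries, 3 came from each of 4 lines in each of 2 states, after 48 h of culture. The lines were KO2 and KO1, each a clone labelled as a ZMYND8 knockout (ZMYND8 is a chromatin reader protein), a WT clone, and a WT line that the labels do not call a clone, named here the plain WT line. Every line was cultured activated and unactivated, and the stimulus is not named in the labels used here. Each clone is a single clone, so line and genotype differ together, and the repeats are labelled biological with no further detail, so p-values measure the spread between these cultures. The purpose implied by the labels is to compare ZMYND8 loss with WT in both states.

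TGF-beta binds a receptor pair, in which the type 2 receptor activates the type 1 receptor, and the activated complex phosphorylates SMAD2 and SMAD3, which enter the nucleus with SMAD4. The pathway restrains itself: SMAD7 blocks the activated type 1 receptor, while SKI and SKIL (also called SnoN) bind SMAD proteins and hold back transcription. In B cells TGF-beta is known for directing class switching to IgA, with RUNX3 acting beside SMAD proteins at the germline alpha promoter, and CH12 cells are a model of that switch.

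Depth, in units of 1000000 estimated counts, ran between 28.99 and 34.07 a library (median 32.1). Regions of all kinds took 4.40% to 5.04% of the counts in activated KO libraries, 4.95% to 5.48% in activated WT, 3.78% to 4.74% in unactivated KO and 4.18% to 5.01% in unactivated WT libraries. Because regions cover only part of each gene, and their strand and exon content are not given, the values describe RNA from stretches of a gene and not its mature mRNA. Fewer cells that express a gene and less RNA of it per cell cannot be told apart here. The regions of Zmynd8 itself were not lower in KO libraries: they summed to 3.30 ± 0.807 CPM (counts per 1000000) in activated KO2 and 3.64 ± 0.623 in activated KO1, against 2.59 ± 0.582 in the WT clone and 2.28 ± 0.271 in the plain WT line (SD, n = 3 each). The log2 difference between activated KO and WT was 0.52 (edgeR adjusted p = 0.0418), a call that 8 of 12 fits with 1 library left out did not make, with differences between 0.41 and 0.61. Those were the fits without activated replicate 2 of KO2, replicates 2 and 3 of KO1, replicates 1 and 2 of the WT clone, or any replicate of the plain WT line. It was also lost with either KO line or either WT line alone, with counts summed per line, with TMM scaling over gene sums alone and with no low-count filter, at 0.43 to 0.61. Where the gene was disrupted is not stated, so this neither checks the KO labels nor contradicts them. Of 10 B cell markers 6 have a region sum. Together these came to 36.1 to 52.2 CPM in unactivated KO and 18.9 to 46.2 CPM in unactivated WT libraries. Pax5 was at 3.63 to 14.2 CPM and Ebf1 at 8.50 to 43.9 CPM. The markers Cd79a and Cd22 stayed at or under 0.490 and 0.359 CPM, which are values of regions and not of mature mRNA. The 2 measurable T cell markers of 7 summed to 0.434 to 0.890 CPM in activated KO, 0.152 to 0.378 in activated WT, 0.453 to 0.780 in unactivated KO and 0.189 to 0.401 CPM in unactivated WT libraries, and the 3 measurable myeloid markers of 5 to at most 1.23 CPM.

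Regions of the members ranged between 1 for Skil and 6 for Tgfbr2. Tgfbr2 lies on chromosome 9 at 116087695 to 116175363 of mouse build GRCm38.p6 (minus strand), and its 6 regions cover 12.7% of that span. Runx3 lies on chromosome 4 at 135120645 to 135177990 (plus strand), with 4 regions over 17.1% of the span. Ski is on the same chromosome at 155154075 to 155222535 (minus strand), with 5 regions over 5.79%. Skil spans 31095058 to 31122923 of chromosome 3 and rests on 1 region at 31106418 to 31109596. Counts per library reached 197 to 891 for Tgfbr2 and 238 to 770 for Runx3, but only 15 to 163 for Skil, 10 to 61 for Ski and 3 to 74 for Smad7, so the last 3 are measured less precisely.

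RefSeq promoter sequences (GRCm38.p6, 250 bases before and 50 after a start) were present for 3 of the 5 members, and those of Tgfbr2 and Runx3 are shown because they hold letters that SMAD and RUNX proteins are known to bind. Capitals mark the SMAD box CAGAC or its reverse GTCTG, the SMAD palindrome GTCTAGAC, and the RUNX letters TGTGGT or their reverse ACCACA, all searched on both strands with overlaps allowed. The Tgfbr2 sequence is chr9:116175314-116175613 on the minus strand, and the Runx3 starts are chr4:135120395-135120694 and chr4:135152295-135152594 on the plus strand.
Tgfbr2: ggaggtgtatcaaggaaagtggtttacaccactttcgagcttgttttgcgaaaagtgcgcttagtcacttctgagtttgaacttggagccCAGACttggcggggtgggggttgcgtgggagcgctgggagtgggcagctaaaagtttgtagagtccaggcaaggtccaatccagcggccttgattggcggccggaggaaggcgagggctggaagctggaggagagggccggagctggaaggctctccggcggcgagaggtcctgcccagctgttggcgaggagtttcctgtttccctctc
Runx3, upstream start: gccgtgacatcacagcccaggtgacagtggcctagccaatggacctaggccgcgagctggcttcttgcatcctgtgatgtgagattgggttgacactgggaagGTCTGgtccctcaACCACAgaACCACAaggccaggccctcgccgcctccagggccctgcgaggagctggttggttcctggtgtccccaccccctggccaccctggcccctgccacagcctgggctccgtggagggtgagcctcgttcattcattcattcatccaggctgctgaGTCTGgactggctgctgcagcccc
Runx3, downstream start: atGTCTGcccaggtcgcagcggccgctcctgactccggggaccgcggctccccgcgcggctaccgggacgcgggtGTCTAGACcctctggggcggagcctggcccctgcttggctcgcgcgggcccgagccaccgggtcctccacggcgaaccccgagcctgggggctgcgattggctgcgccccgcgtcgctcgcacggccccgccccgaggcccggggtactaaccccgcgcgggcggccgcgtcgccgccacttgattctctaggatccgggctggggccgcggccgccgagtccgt
The upstream Runx3 promoter holds 2 SMAD boxes and 2 RUNX matches, which begin at bases 117 and 125 of the window. The downstream one holds 1 SMAD box and, at base 76, the palindrome. Tgfbr2 holds 1 SMAD box at base 91, and the Ski promoter, 85.3% G and C, holds none of the 3 motifs. A SMAD box occurs in 49.6% of the 32851 promoters in the table, the RUNX letters in 16.8% and the palindrome in 0.213% of them. These matches are letters in a window, not measured binding. Smad7 and Skil have no entry in the table.

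All 5 genes rose on activation in both genotypes. All 10 of these tests were called, meaning an adjusted p under 0.05 in edgeR's quasi-likelihood test with Benjamini-Hochberg adjustment over 4510 gene sums. In KO lines 24.1% of all gene sums were called higher on activation, and in WT lines 16.4%. Activated libraries did not overlap unactivated ones for any of the 5 genes in either genotype, a separation upward that 13.8% of gene sums had in KO and 7.74% in WT. The median log2 change of all gene sums was 0.28 in KO and 0.19 in WT.

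**Figure D1:**
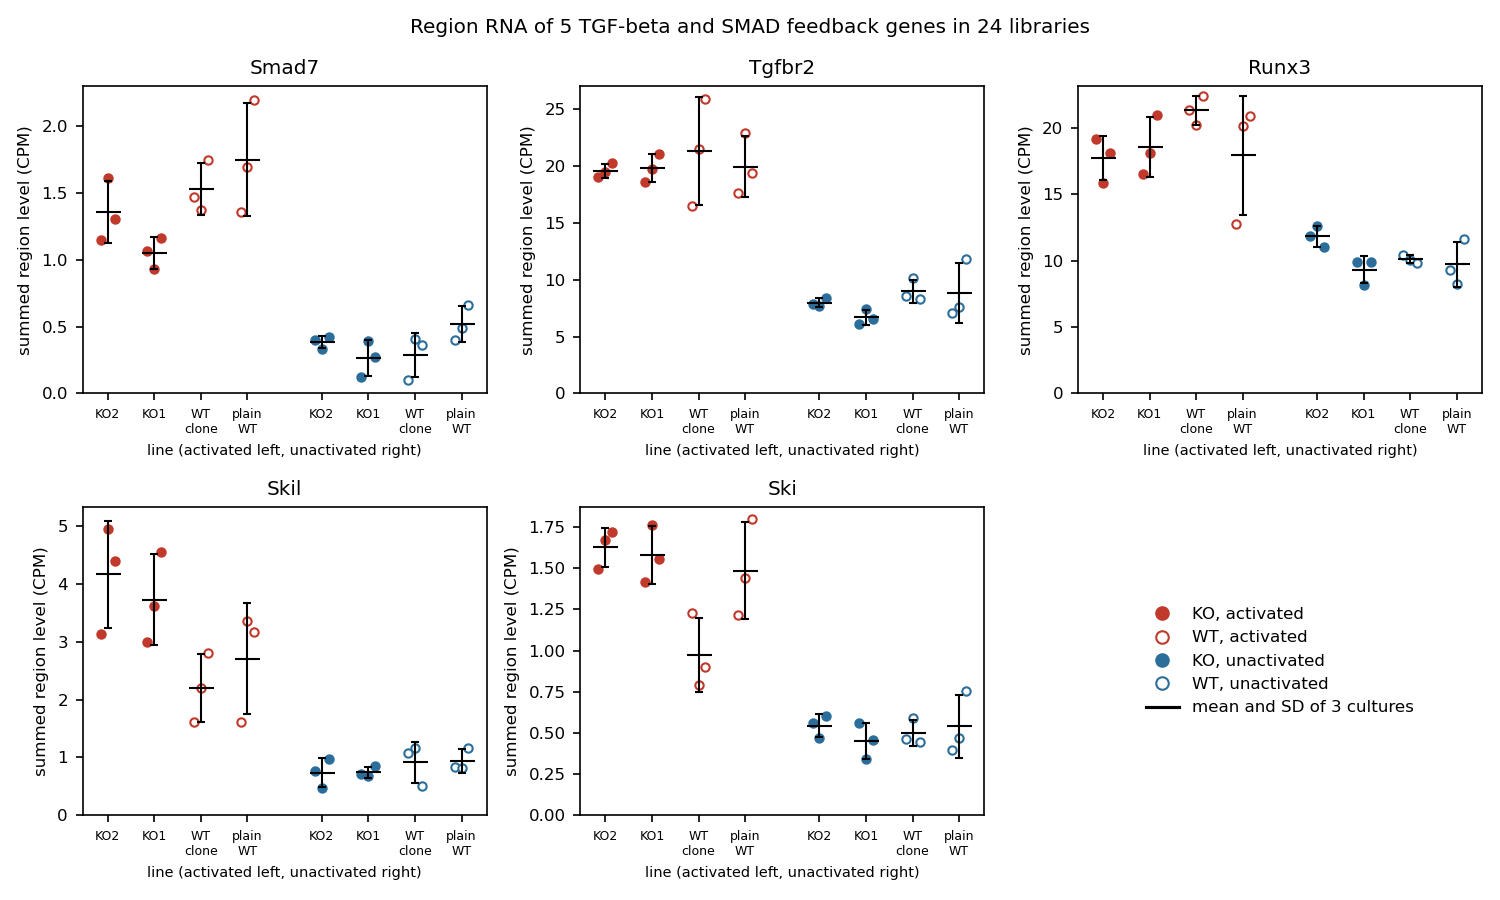
Normalised level (CPM, one panel per gene) of the 5 genes in each of the 24 libraries, grouped by line and state; points are libraries, and lines are the mean and SD of 3. Activated libraries lie above unactivated ones of the same genotype in every panel, and activated KO libraries reach 3.00 to 4.96 CPM for Skil against 1.60 to 3.36 CPM in activated WT.

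Tgfbr2, the type 2 receptor that binds the ligand, ranked with Runx3 above Skil, Smad7 and Ski in mean level per kilobase. It was below Runx3 without overlap in unactivated KO libraries. In KO lines it gave a median of 19.6 CPM with a range of 18.6 to 21.1 when activated, against a median of 7.57 and a range of 6.14 to 8.43 when unactivated. In WT lines the activated median was 20.4 CPM (16.4 to 25.9) and the unactivated median 8.41 (7.03 to 11.8). No activated value overlapped the unactivated range. The log2 change was 1.42 ± 0.14 in KO (SE, adjusted p = 2.58e-08) and 1.21 ± 0.14 in WT (edgeR, adjusted p = 3.84e-07).

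Smad7, the inhibitory SMAD that TGF-beta itself induces in many cells, had few counts and separated by state. It spans 75367365 to 75395935 of chromosome 18 (GRCm38.p6) and has 2 regions over 8.11% of that span. Activated KO2 cultures gave 1.15, 1.61 and 1.31 CPM, against 0.398, 0.336 and 0.421 CPM in unactivated KO2. Activated KO1 gave 1.06, 0.929 and 1.16 CPM, against 0.125, 0.393 and 0.272 CPM unactivated. The activated WT clone had 1.47, 1.37 and 1.75 CPM, against 0.0986, 0.405 and 0.360 CPM unactivated. All 6 activated KO values stood above all 6 unactivated ones, and the WT clone separated in the same way. The plain WT line, with the highest single value, had 1.36, 1.70 and 2.19 CPM activated, against 0.402, 0.487 and 0.665 CPM unactivated. The log2 change was 1.91 ± 0.24 in KO (SE, edgeR adjusted p = 7.30e-07), a 3.77-fold difference, and 2.08 ± 0.23 in WT (adjusted p = 1.19e-07), or 4.24-fold. In KO the 2 regions differed in size of change, with pooled ratios of 5.32 (3.66 to 7.97) and 1.90 (1.18 to 3.11). In WT the same regions were at 4.04 (3.03 to 5.45) and 4.22 (2.35 to 8.15). These 95% intervals cover counting error only, and the KO ratios rest on 33 and 28 counts over 6 unactivated libraries. With the second region alone the KO change was 0.96 and not called (edgeR adjusted p = 0.0527).

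Skil, a co-repressor that TGF-beta signalling first degrades and later induces, had the highest estimated change of the 5 genes in KO lines. Activated KO2 cultures gave 3.14, 4.96 and 4.40 CPM, and unactivated ones 0.768, 0.468 and 0.968 CPM. Activated KO1 gave 3.00, 3.63 and 4.56 CPM, against 0.708, 0.671 and 0.847 CPM unactivated. Every activated KO culture was at or above 3.00 CPM, and no unactivated one passed 0.968 CPM. The activated WT clone had 1.62, 2.20 and 2.80 CPM, against 1.08, 1.16 and 0.509 CPM unactivated. In the plain WT line the activated values were 1.60, 3.36 and 3.16 CPM and the unactivated ones 0.829, 0.809 and 1.17 CPM. WT groups also separated, with a narrower gap. The log2 change was 2.40 ± 0.23 in KO (SE, edgeR adjusted p = 8.94e-09), or 5.26-fold, and 1.40 ± 0.23 in WT (adjusted p = 3.62e-05), or 2.63-fold. In all 4 activated lines the first replicate was the lowest for Skil, and the same held for Tgfbr2.

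Ski, the founding member of the same co-repressor family, had a similar pattern at lower counts. Activated KO libraries had a median of 1.61 CPM (1.42 to 1.77), against 0.513 CPM (0.342 to 0.602) unactivated. Activated WT libraries had a median of 1.22 CPM (0.791 to 1.80), against 0.464 CPM (0.394 to 0.756) unactivated, so the WT states lay close but did not overlap. Its log2 change was 1.68 ± 0.18 in KO (SE, edgeR adjusted p = 8.57e-08) and 1.21 ± 0.19 in WT (adjusted p = 2.11e-05).

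Runx3, the RUNX partner of SMADs at the alpha germline promoter, had the lowest estimated change of the 5 in both genotypes. Activated KO libraries ranged 15.9 to 21.0 CPM (median 18.1), against 8.13 to 12.6 CPM (median 10.5) unactivated. Activated WT libraries ranged 12.8 to 22.4 CPM (median 20.6), against 8.27 to 11.6 CPM (median 9.95) unactivated. The lowest activated WT value, 12.8 CPM, came from the plain WT line, whose other 2 libraries had 20.1 and 20.9 CPM. The log2 change was 0.79 ± 0.14 in KO (SE, edgeR adjusted p = 6.56e-05) and 0.98 ± 0.14 in WT (adjusted p = 4.35e-06).

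Read line by line, all 5 genes were called higher on activation in KO2, KO1, the WT clone and the plain WT line alike. Of all 4510 gene sums, 583 were called higher in KO2, 610 in KO1, 432 in the WT clone and 402 in the plain WT line. All 10 calls also held when library sizes were scaled over gene sums alone, which brings the median change of all genes to -0.02 in KO and -0.01 in WT, and the changes then ran between 0.47 (Runx3) and 2.09 (Skil) in KO and between 0.76 (Runx3) and 1.88 (Smad7) in WT. Under that scaling the genes called higher and lower numbered 579 and 491 in KO against 1086 and 191, and 519 and 484 in WT against 741 and 244.

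Per kilobase of region, activated KO libraries averaged 1.85 ± 0.186 CPM for Runx3, 1.76 ± 0.0796 for Tgfbr2, 1.24 ± 0.254 for Skil, 0.520 ± 0.101 for Smad7 and 0.405 ± 0.0345 for Ski (SD, n = 6 each). Runx3 and Tgfbr2 overlapped between libraries, as did Smad7 and Ski, whereas the lowest Skil value stood above the highest Smad7 value. In activated WT libraries the averages followed the same order down to Skil, at 2.00, 1.85 and 0.773 CPM per kilobase, and Skil and Smad7 (0.708) overlapped there. In unactivated KO libraries Runx3 averaged 1.08 CPM per kilobase and Tgfbr2 0.659 without overlap, and Skil (0.232), Smad7 (0.140) and Ski (0.126) followed. These orders compare the measured regions, not the whole genes.

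Between KO and WT, 1 of the 5 members was called in activated cells, Skil, and 0 in unactivated cells. In activated cells Skil averaged 3.95 ± 0.806 CPM in KO lines, against 2.46 ± 0.766 CPM in WT lines (SD, n = 6 each), a log2 difference of 0.69 ± 0.20 (SE, edgeR adjusted p = 0.0306) or 1.62-fold. Among all gene sums 6.34% were called higher in activated KO and 2.33% lower, 8.67% in all. The KO range of 3.00 to 4.96 CPM overlapped the WT range of 1.60 to 3.36 CPM. The T cell marker sums given above were higher in KO than in WT libraries without overlap in both states. They hold Lck, at most 0.815 CPM, and Thy1, at most 0.116 CPM. Among all gene sums 3.68% were higher in activated KO than in activated WT without overlap. The B cell marker sums were 48.0 to 67.2 CPM in activated KO and 27.8 to 49.4 CPM in activated WT. The part of these marker sums in the Skil difference was not tested. The difference was called with KO2 alone, at 0.77 (edgeR adjusted p = 0.0495), and not with KO1 alone, at 0.61 (adjusted p = 0.219). It was called against the WT clone alone, at 0.84 (adjusted p = 0.04998), and not against the plain WT line alone, at 0.54 (adjusted p = 0.304). Both of these calls lie close to the threshold. Leaving out 1 library lost the call in 6 of 12 fits, with differences between 0.56 and 0.80 and adjusted p between 0.0200 and 0.0997. The activated libraries whose removal lost it were replicates 2 and 3 of KO2, replicate 3 of KO1, replicates 1 and 2 of the WT clone and replicate 1 of the plain WT line.

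The other 4 genes did not pass the test in activated cells. Ski reached a mean of 1.60 ± 0.137 CPM in KO lines, against 1.23 ± 0.366 CPM in WT lines (SD, n = 6 each), a log2 difference of 0.41 ± 0.17 (SE, edgeR adjusted p = 0.146). Against the WT clone alone the Ski difference was 0.72 (adjusted p = 0.0393), and against the plain WT line alone 0.11 (adjusted p = 0.902). For Smad7 the mean was 1.20 ± 0.235 CPM in KO lines, against 1.64 ± 0.317 CPM in WT lines, a difference of -0.45 ± 0.20 (adjusted p = 0.191). The KO and WT ranges of both genes overlapped. For Tgfbr2 it was 19.7 ± 0.889 CPM in KO lines, against 20.6 ± 3.52 CPM in WT lines, a difference of -0.07 with a 95% interval of -0.34 to 0.21 on the log2 scale. For Runx3 it was 18.1 ± 1.83 CPM in KO lines, against 19.6 ± 3.45 CPM in WT lines, a difference of -0.11 with an interval of -0.37 to 0.15.

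In unactivated cells 6.56% of all gene sums were called between KO and WT, and 0 of the 5 members. Tgfbr2 averaged 7.35 ± 0.848 CPM in KO lines, against 8.90 ± 1.78 CPM in WT lines (SD, n = 6 each), a log2 difference of -0.28 ± 0.14 (SE, edgeR adjusted p = 0.307). Skil averaged 0.738 ± 0.170 CPM in KO lines, against 0.926 ± 0.259 CPM in WT lines, a difference of -0.31 with a 95% interval of -0.80 to 0.18. Smad7 was at 0.324 ± 0.111 CPM in KO lines, against 0.403 ± 0.184 CPM in WT lines. Runx3 was at 10.6 ± 1.61 CPM in KO lines, against 9.92 ± 1.11 CPM in WT lines, and Ski at 0.497 ± 0.0958 CPM in KO lines, against 0.519 ± 0.133 CPM in WT lines. Each pair overlapped between libraries.

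The test of whether activation differed between KO and WT called 0 of the 5 members, and 0.554% of all gene sums. For Skil the activation change was larger in KO by 1.00 ± 0.32 on the log2 scale (SE, edgeR, unadjusted p = 0.00459, adjusted p = 0.205). For Ski the difference was 0.48 ± 0.27 (adjusted p = 0.546). Tgfbr2 was at 0.21, Smad7 at -0.17 and Runx3 at -0.19, each within an interval that spans 0.

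**Figure D2:**
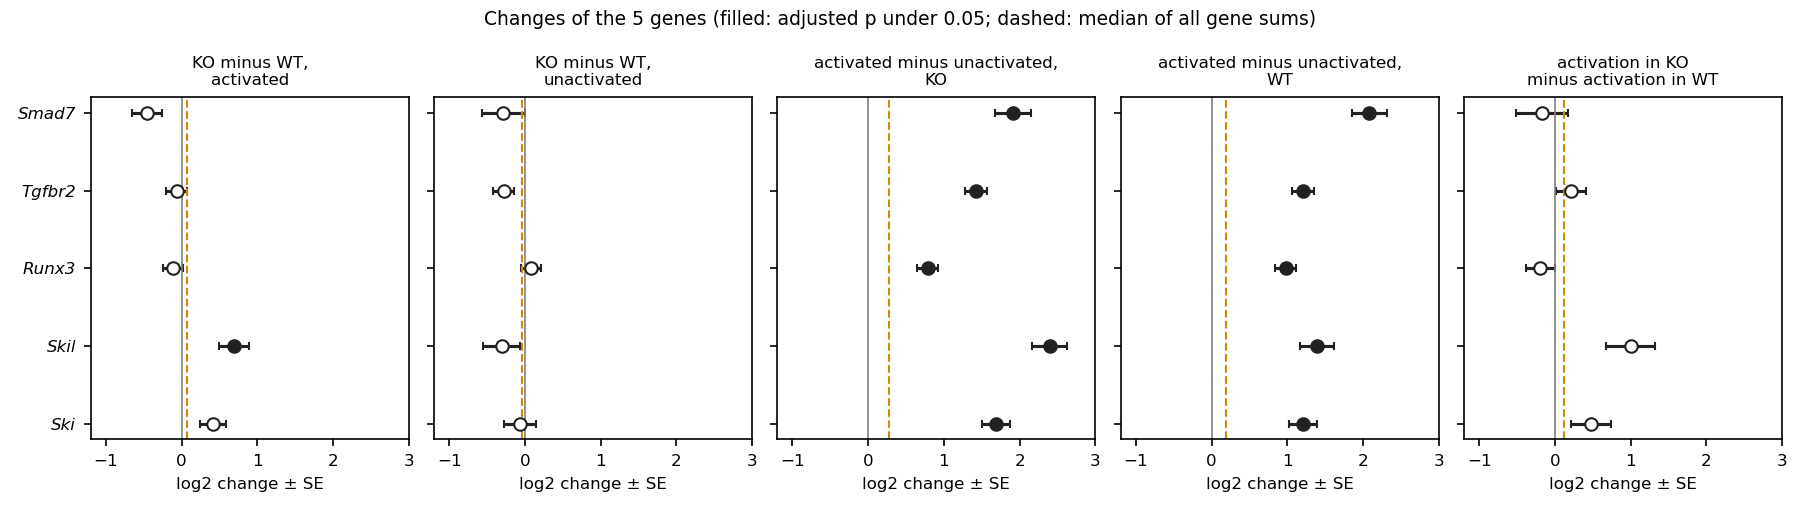
Log2 change (horizontal axis) of the 5 genes in each comparison of the report, with points for the fitted value, bars for its standard error and a dashed line at the median of all gene sums; filled points passed the adjusted threshold. All 10 activation points are filled, and among the KO to WT points Skil in activated cells, at 0.69, is the filled one.

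Lines of 1 genotype were compared as a measure of how far lines differ without a change of genotype. No member was called in any of the 4 such comparisons, in which 0.133% of gene sums were called between the WT clone and the plain WT line unactivated, 0.0887% activated, and 0.155% between KO2 and KO1 activated. Between KO2 and KO1 unactivated edgeR called 0 of 4510 gene sums and DESeq2 called 2. Of the 4510, 205 had an unadjusted edgeR p under 0.05, a level that tests without any difference reach at a rate of 0.05. The largest member differences lay between the WT clone and the plain WT line: -0.87 ± 0.38 for Smad7 unactivated (SE, edgeR adjusted p = 0.792) and -0.61 ± 0.24 for Ski activated (adjusted p = 0.883). Both exceed in size the KO to WT difference of the same gene in the same state, which for Smad7 was -0.28 ± 0.28 and for Ski 0.41 ± 0.17. Line comparisons set 3 libraries against 3, and KO to WT comparisons 6 against 6. Line differences are thus less precise, and their shares of calls are not on equal terms with those between KO and WT. For Skil in activated cells the line differences were 0.16 between KO2 and KO1 and -0.30 between the WT clone and the plain WT line, with 95% intervals of -0.39 to 0.71 and -0.87 to 0.28, which reach as far from 0 as its KO to WT difference of 0.69.

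Regions were also read one by one. They have no test here, and the ones named were chosen after their values were seen, so ratios of pooled CPM are given with a 95% interval that covers counting error only, which is less than the spread between cultures. On activation all 18 regions of the sums were higher in WT, and 17 of them had an interval above 1. In KO all 17 regions with counts in the unactivated libraries were higher.

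**Figure D3:**
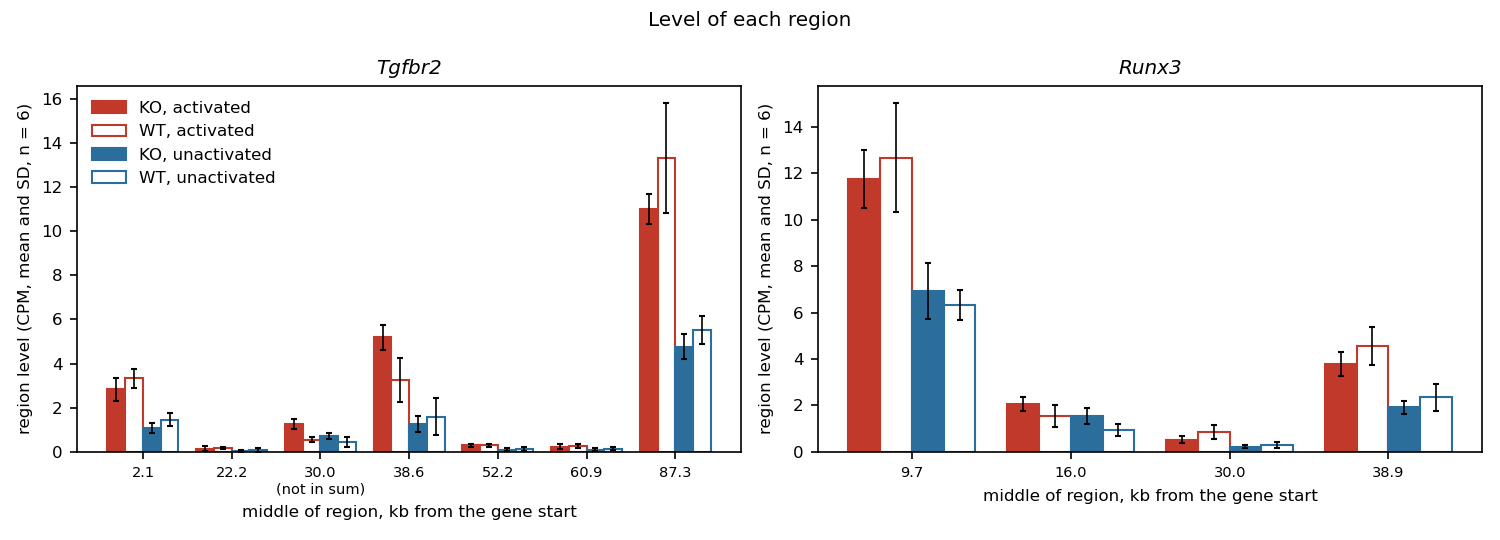
Level (CPM, vertical axis) of each region of Tgfbr2 and Runx3, labelled by the distance of its middle from the gene's start in kilobases, in the 4 sets of genotype and state; bars are means of 6 libraries with SD. In Tgfbr2 the region 38.6 kb from the start is higher in activated KO than in activated WT, at 5.20 against 3.25 CPM, and the ranges of the region 87.3 kb from the start overlap, with means of 11 and 13.3 CPM.

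In Tgfbr2 the region at 116087746 to 116088402, 87.3 kb from the gene's start, near its far end, held 61.3% of the gene's counts. It gave 10.2 to 11.7 CPM in activated KO, against 10.4 to 16.5 CPM in activated WT, ranges that overlapped (mean 11 ± 0.679 in KO and 13.3 ± 2.49 in WT, SD, n = 6 each). Its KO to WT ratio in activated cells was 0.826 (0.780 to 0.874). The region 2.1 kb from the start was at 0.843 (0.752 to 0.945), also with ranges that overlapped. A region 38.6 kb from the start (116133391 to 116140198) gave 4.56 to 6.16 CPM in activated KO against 2.23 to 4.50 CPM in activated WT, without overlap and with a ratio of 1.60 (1.45 to 1.77). Those 6 KO libraries averaged 5.20 ± 0.573 CPM and the 6 WT libraries 3.25 ± 0.989 CPM. Unactivated, the same region averaged 1.27 CPM in KO and 1.59 CPM in WT. The next region, 30.0 kb from the start (116144778 to 116145856), overlaps the predicted gene Gm31292 and is not part of the sum. It gave 0.929 to 1.68 CPM in activated KO against 0.376 to 0.697 CPM in activated WT, also without overlap, a ratio of 2.28 (1.81 to 2.88). Unactivated, its ratio was 1.66 (1.24 to 2.22), with ranges that overlapped. Among all gene sums 3.68% were higher in activated KO than in activated WT without overlap. That share is over gene sums, and none was computed over single regions. Without the region of most counts the summed Tgfbr2 log2 difference between activated KO and WT was 0.25, and it was -0.07 for the whole sum; neither was called.

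In Runx3 the KO and WT libraries of activated cells overlapped in each of the 4 regions, so the ratios below describe pooled counts and are not set apart from the spread between cultures. The region 9.7 kb from its upstream start (135128615 to 135132053), with 64.8% of the counts, had a KO to WT ratio of 0.928 (0.877 to 0.982) in activated cells. The region 16.0 kb from the start (135136039 to 135137164) had pooled ratios above 1 in both states, at 1.33 (1.14 to 1.55) activated and 1.61 unactivated, with 1.70 to 2.51 CPM in activated KO and 0.896 to 2.28 CPM in activated WT. The region 30.0 kb from the start (135150293 to 135150980), upstream of the second promoter window shown above, had a ratio of 0.612 (0.475 to 0.787) in activated cells. The region downstream of that window, 38.9 kb from the start, was at 0.836 (0.757 to 0.922).

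Smad7 counts came mainly from the region at 75376462 to 75377931, with 76.7% of them. That region had a KO to WT ratio of 0.702 (0.578 to 0.851) in activated cells and 0.532 in unactivated cells. Its KO and WT libraries overlapped in both states, with 0.712 to 1.31 CPM in activated KO and 0.982 to 1.93 CPM in activated WT. The second region held 28 counts over 6 unactivated KO libraries and 14 over 6 unactivated WT libraries, too few to set a direction. In Ski the region at 155200496 to 155201712 held 54.6% of the counts. It averaged 0.886 CPM in activated KO, against 0.594 CPM in activated WT, a ratio of 1.49 (1.17 to 1.90). Its libraries overlapped too, at 0.636 to 1.24 CPM in activated KO and 0.274 to 0.816 CPM in activated WT. Skil has a single region, so its value cannot be compared along the gene.

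Beyond the 5 members, 81 genes of the pathway were listed in 7 groups by role. Region sums existed for 49 of them and 30 could be tested. On activation 14 of the 30 were called higher and 1 lower in KO, and 8 higher and 1 lower in WT. The higher ones make 46.7% of the 30 in KO and 26.7% in WT, beside 24.1% and 16.4% of all gene sums. Of all 4510 gene sums, 191 were called lower in KO and 244 in WT. The median log2 change of the 30 was 0.41 in both genotypes, beside 0.28 in KO and 0.19 in WT over all gene sums. Both tested receptors rose in both genotypes. Tgfbr1, the type 1 receptor that phosphorylates SMAD2 and SMAD3, changed by 2.04 ± 0.29 in KO (SE, edgeR adjusted p = 4.92e-06) and 1.98 ± 0.29 in WT (adjusted p = 6.94e-06). Of the SMAD genes Smad2, Smad3 and Smad4 could be tested, and 0 of 3 was called in any of the comparisons of state or genotype. Among 8 tested inhibitors and ubiquitin regulators 3 were called higher in KO (37.5%) and 1 in WT (12.5%). The inhibitor with the smallest p was Ldlrad4, a membrane protein that keeps SMAD2 and SMAD3 from the receptor, at 2.52 ± 0.16 in KO and 2.66 ± 0.16 in WT. Bcl2l11, which encodes the pro-apoptotic BIM, rose in both genotypes, by 1.32 ± 0.23 in KO and 0.74 ± 0.22 in WT (SE, edgeR adjusted p = 0.0131 in WT). The kinase gene Hipk2 was at 0.51 ± 0.22 in KO (adjusted p = 0.0775, not called) and rose by 0.97 ± 0.21 in WT (adjusted p = 0.00115), though not called in the WT clone alone (0.84). Neither gene was called for a difference in activation between KO and WT (edgeR adjusted p = 0.522 for Bcl2l11 and 0.648 for Hipk2). Runx1, the RUNX family member prominent in blood cells, fell in both genotypes, by 0.93 ± 0.15 in KO and 0.98 ± 0.16 in WT, while Runx3 rose.

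Between KO and WT the called shares of these genes were near those of all gene sums or below them. In activated cells 2 of 30 were called higher in KO (6.67%, beside 6.34% of all gene sums) and 0 lower (beside 2.33%). Runx1 was higher in KO by 0.63 ± 0.16 on the log2 scale (SE, edgeR adjusted p = 0.00896), and Ltbp1, which holds latent TGF-beta in the matrix, by 1.02 ± 0.28 (adjusted p = 0.0190). In unactivated cells 1 of the 30 was called in either direction (3.33%, beside 6.56% of all gene sums), Runx1, higher in KO by 0.59 ± 0.15 (adjusted p = 0.0153). The median over the 30 genes was 0.09 in activated cells and -0.01 in unactivated cells, against 0.07 and -0.03 over all gene sums. For a difference in activation between KO and WT 0 of the 30 were called by edgeR, beside 0.554% of all gene sums. The Runx1 call in activated cells was not made with KO1 alone (0.45) or against the plain WT line alone (0.51), nor in unactivated cells with KO2 alone (0.51), the plain WT line alone (0.39) or KO2 replicate 1 left out (0.52). With counts summed per line it was lost in both states, at 0.64 activated and 0.62 unactivated. For Ltbp1 it was not made with KO1 alone (0.81) or against the WT clone alone (0.78), nor without activated replicate 3 of KO2, replicate 1 or 2 of the WT clone, or replicate 1 or 3 of the plain WT line (0.88 to 0.96).

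**Figure D4:**
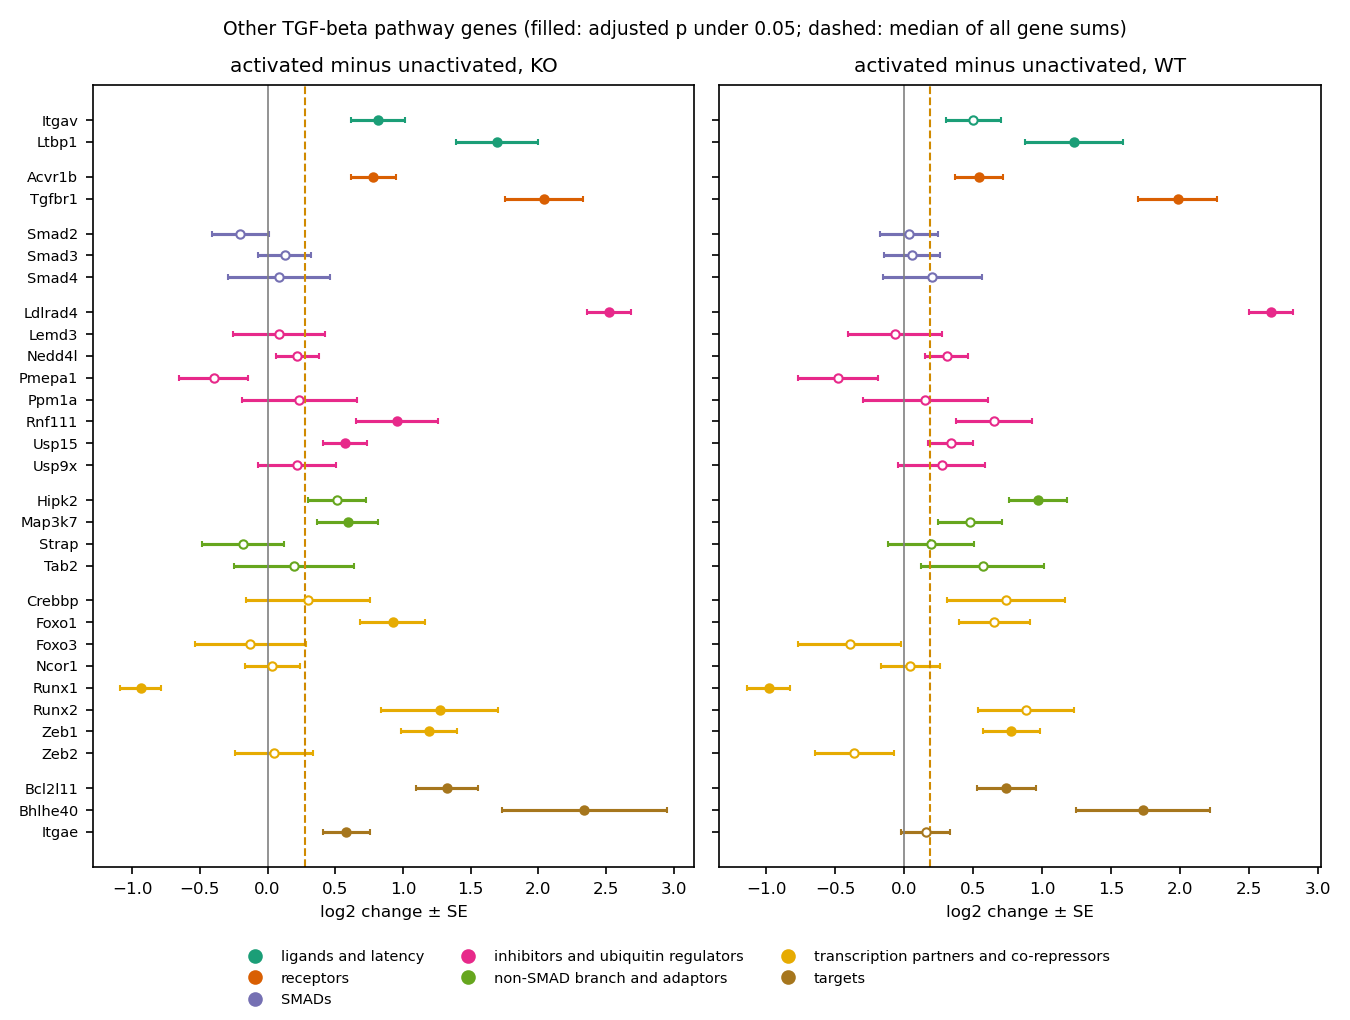
Log2 change (horizontal axis) of the tested pathway genes by role on activation in KO and in WT; points are fitted values, bars are standard errors and filled points passed the adjusted threshold. Ldlrad4 lies furthest to the right in both genotypes, at 2.52 in KO and 2.66 in WT, and Runx1 is the filled point left of 0.

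The genes whose level tracked each member best over the 24 libraries were found by Pearson correlation of log2 CPM among 365 other genes of at least 5 CPM in some group. For Tgfbr2 they were B4galt1 (r = 0.97), Armc9 (0.96) and Cdyl (0.95). For Skil they were Rbpj, the DNA-binding factor of Notch signalling (0.94), Jmjd1c, a gene of the histone demethylase family (0.94), and B4galt1 (0.94). Smad7 was closest to Cdyl (0.92), Zmiz1 (0.91) and Armc9 (0.90). Runx3 was closest to Zmiz1 (0.92), B4galt1 (0.92) and the B cell factor gene Pax5 (0.92), and Ski to Zmiz1 (0.93), Ptpn12 (0.93) and Cflar (0.92). All 24 libraries share the split between activated and unactivated cells, and these values describe that shared split as much as any closer likeness.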

How the data were processed

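The RNA libraries were depleted of ribosomal RNA, stranded and read from 1 end, according to the labels. Tools and build in the submitters' processing notes are kallisto 0.43.0, DESeq2 and GRCm38.p5; neither annotation release nor strand setting is stated there. For each library the authors deposited expected counts (kallisto's estimated counts, not normalised) of 171152 targets, of which 49745 are genomic regions. The other 9 samples (8 ChIP, 1 GRO) were not analysed here.

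Regions were assigned to a gene when wholly inside its RefSeq GRCm38.p6 span and touching no other gene (12 locus entries left out), giving 26591 regions in 10750 gene sums. Sums were rounded; library size was the total count, with TMM factors over 61074 filtered targets. edgeR 4.0.16 (R 4.3.3) fitted 8 group means to 24 libraries over the 4510 sums that passed filterByExpr by group. Standard errors are the log2 change over the root of F, and p-values were adjusted by Benjamini-Hochberg over all 4510. CPM are counts over library size after TMM. DESeq2 1.42.0 was an alternative, among 10 planned ones and 1 added after the data were seen. Scripts were tested on simulated data.

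The members, gene lists and tests were chosen with earlier results of these data known. Named pathway genes are up to 4 called genes with the smallest p in each comparison; the 3 genes most like each member are those of highest Pearson r. Replicates differed by more than counting noise in every pair (chi-square per degree of freedom 9.88 to 66.5). Intervals on counts cover counting error only.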

Additional observations from a re-analysis of the deposited data

Results flagged for a closer look

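Of 20 sets of 6 libraries (5 genes in 4 sets of genotype and state), 1 held a library far from the others. Runx3 in activated WT was at 12.8 CPM in the first library of the plain WT line, against 20.1 CPM in the nearest other library, a gap of 0.77 of the whole range where 0.625 is the critical value for 6. About 1 in 20 such sets is expected by chance. Without that library the Runx3 activation change in WT was 1.08 (edgeR adjusted p = 6.46e-07) and its difference between activated KO and WT was -0.21 (adjusted p = 0.470); neither changed its call. Runx3 stayed uncalled for a difference in activation between KO and WT, at -0.29.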

How the results depend on the processing

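The 10 activation calls of the 5 genes held in every setting tried except 1: without its region of most counts, a choice added after the data were seen, Smad7 in KO was at 0.96 (adjusted p = 0.0527). The Skil difference between activated KO and WT was 0.61 with KO1 alone and 0.54 against the plain WT line alone, both uncalled. It was 0.56 to 0.80 with 1 library left out. The call was kept with counts summed per line, at 0.68 (edgeR adjusted p = 0.0215), and with DESeq2, at 0.69 (adjusted p = 0.0222). Ski was called against the WT clone alone, at 0.72, and was at 0.11 against the plain WT line alone. No member was called in other genotype tests under any setting. Low counts limit Smad7, Ski and Skil.

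Uncalled log2 differences changed sign as follows. With KO1 alone, Runx3 was at -0.090 unactivated and 0.014 for the difference in activation. With KO2 alone, unactivated Ski was at 0.066 and Smad7 at 0.010. Against the plain WT line alone, activated Runx3 was at 0.015 and the Smad7 difference in activation at 0.17; against the WT clone alone, unactivated Ski was at 0.0011 and Smad7 at 0.15. Without the region of most counts, unactivated Ski was at 0.048 and Smad7 at 0.89, activated Tgfbr2 at 0.25, Smad7 between activated KO2 and KO1 at -0.23, and Ski between the unactivated WT lines at 0.23. With TMM over gene sums alone, Ski between activated KO2 and KO1 was at -0.017 and Skil between the unactivated WT lines at 0.010. With 1 library left out, KO to WT ranges were -0.15 to 0.10 for unactivated Ski and -0.14 to 0.017 for activated Tgfbr2, and -0.34 to 0.035 for the Smad7 difference in activation. Between activated KO2 and KO1 they were -0.14 to 0.031 (Runx3), -0.030 to 0.13 (Ski) and -0.062 to 0.029 (Tgfbr2), and unactivated -0.27 to 0.23 (Skil). Between the WT clone and the plain WT line they were -0.047 to 0.20 (Runx3), -0.31 to 0.20 (Ski), -0.23 to 0.28 (Skil) and -0.12 to 0.29 (Tgfbr2) unactivated, and -0.35 to 0.0067 (Smad7) and -0.071 to 0.25 (Tgfbr2) activated.

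Counts of gene sums called changed with these settings. In activated KO against WT, 286 higher became 134 with KO1 alone, 136 against the plain WT line alone and 171 with counts summed per line, and 105 lower became 45 with KO1 and 67 against plain WT; TMM over gene sums alone gave 240 and 156. Unactivated, 156 higher became 89 with KO1, 102 with KO2, 75 against plain WT and 103 with summed lines, and 140 lower became 68, 74 and 75. Activation in KO gave 610 higher and 115 lower with KO1, 583 and 94 with KO2, and 579 and 491 with TMM over gene sums alone. In WT it gave 432 and 135 in the WT clone, 402 and 117 in the plain WT line, and 484 lower with TMM over gene sums alone. For the difference in activation, 19 higher and 6 lower became 45 and 10 with DESeq2, 3 and 3 with KO1, 58 and 23 with no low-count filter, 0 and 0 with summed lines or against plain WT, and 19 and 11 with TMM over gene sums alone; 1 library left out gave 11 to 35 higher. Of the pathway genes, 2 higher in activated KO became 0 with KO1, 1 with summed lines or plain WT, and 1 to 2 with 1 library left out. Unactivated, 1 higher became 0 with KO2, summed lines or plain WT and 0 to 1 with 1 library left out, and 0 lower became 1 with summed lines or no filter and 0 to 2 with 1 left out. Activation in KO gave 7 higher with KO1, and 9 higher and 2 lower with TMM over gene sums alone, and in WT 4 higher in the WT clone, 3 in the plain WT line and 7 to 15 with 1 library left out. The cause of these moves was not tested; comparisons of single lines also use fewer libraries.

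The main model did not treat same-numbered libraries as paired. Over 84 pairs the correlation of deviations ran between -0.29 and 0.26, with 27 over 0.1. Of 24 libraries 18 correlated best with their own number, and whether same-numbered libraries share an effect was not tested. With the replicate number as a block no member's call changed, Skil between activated KO and WT was at 0.71, Skil between the unactivated WT lines turned to 0.012, and the difference in activation was called higher for 34 and lower for 11 gene sums.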
